A study of Homo sapiens with 12 samples.

Results

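Reporter mRNAs in which methionine is the last amino acid before a premature stop codon were examined, that is, windows with ATG at bases 4 to 6 and a stop codon at bases 7 to 9. The members were chosen by sequence alone, from both deposited tables, and windows with a further stop codon at bases 1 to 3 were left out (6 and 14 of them). The EJC-independent table lists 319 such variants among 41955, or 43.6% of the 732 that are possible, and the EJC-enhanced table lists 434 among 51306, or 59.3%. The same windows with the tryptophan codon TGG in place of the stop codon served as controls, 128 and 191 of 244 possible. The variants were carried by HEK293T cells, a human embryonic kidney line, with the whole library placed at a single genomic location by Cre-Lox recombination. The cells of each reporter were given DMSO, the vehicle, or SMG1i, an inhibitor of the kinase SMG1, at 0.5 µM for 24 hours, with 3 libraries in each of the 4 groups and 12 in all. All groups are wild type apart from the reporters, which are named after the exon junction complex (EJC), a protein mark that splicing leaves on mRNA: decay of the first does not depend on it and decay of the second is enhanced by it. The labels do not say whether replicates were separate cultures, and the sources used here do not give the genomic position of the reporters.

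Nonsense-mediated mRNA decay (NMD) degrades mRNAs on which ribosomes stop too early, and it begins when SMG1 phosphorylates the helicase UPF1 near the terminating ribosome. At a stop codon the release factor eRF1 enters the ribosome and breaks the bond between the finished chain and the tRNA of the last sense codon. The last amino acid therefore sits at the bond that is cut, and the series, by its title, asks how the rate of that cut bears on NMD. Methionine has a long unbranched side chain with a sulfur atom and is read from a single codon, so the amino acid and its triplet cannot be separated by comparing synonymous codons.

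Each variant is a window of 10 bases: the penultimate codon, the last codon, the stop codon (or TGG) and 1 following base. The windows below are shown because they are the 3 methionine contexts counted most deeply with all stop codons and TGG in both tables, and 32 of 244 contexts had that complete set. Capitals mark the methionine codon.
Phenylalanine before methionine, TAA then C: ttcATGtaac
Phenylalanine before methionine, TAG then C: ttcATGtagc
Phenylalanine before methionine, TGA then C: ttcATGtgac
Phenylalanine before methionine, TGG control: ttcATGtggc
Proline before methionine, TAA then C: cctATGtaac
Proline before methionine, TAG then C: cctATGtagc
Proline before methionine, TGA then C: cctATGtgac
Proline before methionine, TGG control: cctATGtggc
Leucine before methionine, TAA then C: ctcATGtaac
Leucine before methionine, TAG then C: ctcATGtagc
Leucine before methionine, TGA then C: ctcATGtgac
Leucine before methionine, TGG control: ctcATGtggc

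For each variant the response is RNA with SMG1i over RNA with DMSO, as a log2 ratio, and higher responses are taken to mean more NMD in cells without the inhibitor. Each variant has 1 ratio in the tables, with no values for single libraries. The numerator of the ratio is not stated in them, and the deposited sign was reversed here because stop variants are negative as deposited while TGG variants centre near 0. In the authors' deposited table of EJC-independent variants, the phenylalanine windows had responses of 1.40 (standard error 0.30) with TAA, 1.27 (0.28) with TAG and 1.55 (0.14) with TGA, against 0.17 (0.27) with TGG. In the authors' deposited table of EJC-enhanced variants, these windows gave 1.89 (0.40), 2.66 (0.54) and 2.35 (0.42), against -0.22 (0.39). All 3 stop codons were thus above the control in both reporters, and the gaps between stop codons were of the size of the standard errors. The proline windows gave 1.35, 1.52 and 1.63 for TAA, TAG and TGA in the authors' deposited table of EJC-independent variants and 2.31, 1.78 and 2.69 in that of the EJC-enhanced reporter, with controls at -0.10 in both. The leucine windows gave 1.25, 1.49 and 1.68, and 1.88, 2.45 and 2.02, in the same deposited tables, with controls at -0.20 and -0.26.

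Methionine before the stop codon went with a low response in the EJC-independent reporter. The 315 members whose mean normalized count reached 10 averaged 1.53 ± 0.04 (SE over variants), or 2.88-fold more RNA under the inhibitor, against 1.72 over the 28649 other stop variants (3.30-fold). The 432 members of the EJC-enhanced reporter averaged 2.21 ± 0.04 (4.64-fold), against 2.29 over 34090 others (4.89-fold). A linear model over all stop variants, with terms for the last codon, the penultimate codon and the stop codon with its following base, placed methionine 0.19 below the mean of the other 60 sense codons in the EJC-independent reporter (effect -0.19, 95% interval -0.26 to -0.12, Benjamini-Hochberg adjusted p 2.29e-07 over 61 codons). Of the 61 codons, 34.4% were called lower in this way, and methionine ranked 10 from the lowest. The effect was -0.08 in the EJC-enhanced reporter (interval -0.16 to 0.01, adjusted p 0.413), at rank 5 from the lowest, where 1.64% of codons were called lower. Over the alternatives this effect ran from -0.08 to -0.00438, the latter with the matched TGG response subtracted, and none passed. Errors and p-values here come from the spread over sequences measured in shared libraries, not over cultures.

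The effect of methionine was 0.11 further below 0 in the EJC-independent than in the EJC-enhanced reporter (difference -0.11, interval -0.22 to -0.0045, p 0.0413). This difference did not pass after adjustment over the 61 codons (adjusted p 0.0741). It passed with inverse variance weights (-0.12, adjusted p 0.0047), among variants listed in both tables (-0.19, adjusted p 0.0167) and with standard errors that ignore shared random bases (-0.11, adjusted p 0.0404). It did not pass under the other alternatives. Other codons did pass in the main model, with larger differences in the same direction for TAT (-0.35), TAC (-0.31) and TTT (-0.28). Some passed in the opposite direction, such as GGG (0.51), so a difference between reporters was not particular to methionine. The reporters were measured in separate libraries and are scaled apart, with 315 and 432 methionine members. These p-values rest on the spread over sequences, so a difference between reporters cannot be told apart from one between libraries.

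The TGG controls of the same windows did not show a call for methionine. The 126 control windows averaged 0.00 ± 0.06 in the EJC-independent reporter and the 191 control windows -0.08 ± 0.05 in the EJC-enhanced reporter, and the model effects of methionine among TGG variants were 0.03 (interval -0.08 to 0.13, adjusted p 0.917) and -0.11 (interval -0.20 to -0.01, unadjusted p 0.0243, adjusted p 0.313). With stop and TGG variants in a joint model, the methionine effect in stop variants minus that in TGG variants was -0.22 in the EJC-independent reporter (interval -0.34 to -0.09, adjusted p 0.00179), where 27.9% of codons were called lower. It was -0.14 at mean counts of at least 50 (adjusted p 0.048). The same quantity was 0.03 in the EJC-enhanced reporter (interval -0.10 to 0.16, adjusted p 0.92). In 208 pairs of a methionine stop variant and its own TGG window, the stop codon raised the response by 1.57 (SD 0.85, 2.97-fold) in the EJC-independent reporter, against 1.73 in 23867 pairs of other codons. When the response of the TGG window was subtracted variant by variant, which leaves these 208 members, the effect of -0.16 no longer passed (adjusted p 0.0618). The 377 pairs of the EJC-enhanced reporter gave 2.25 (SD 1.15, 4.77-fold), against 2.26 for other codons.

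Most single members had more RNA under the inhibitor, but fewer than among all stop variants. The authors' deposited table of EJC-independent variants has 222 of the 315 members higher at an adjusted p under 0.05 (70.5%), where 84.8% of all stop variants are higher. The authors' deposited table of EJC-enhanced variants has 327 of 432 members higher (75.7%), where 85.7% of all stop variants are. Depth moved with these shares: the median mean normalized count of members was 93.8 in the EJC-independent and 72.7 in the EJC-enhanced table, against 247 and 145 for other stop variants. At mean counts of at least 100, the authors' deposited table of EJC-independent variants has 142 of 149 members higher (95.3%, against 98.1% of other stop variants), and that of the EJC-enhanced reporter has 146 of 154 (94.8%, against 95.5%). The mean response of members at that depth was 1.57 in the EJC-independent reporter, against 1.71 for other stop variants, and 2.32 against 2.32 in the EJC-enhanced reporter. At lower counts it was 1.49 against 1.74, and 2.15 against 2.23. Members lay below other codons at both depths in the EJC-independent reporter, and the difference between depths was not tested.

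In the opposite direction, the authors' deposited table of EJC-enhanced variants has 0 of 432 members lower under the inhibitor, where 1 of all 34522 stop variants is (0.0029%). That of the EJC-independent reporter has 1 of 315 members lower, where 3 of all 28964 stop variants are (0.0104%). That member, shown because it goes against the other members called and named after its value was seen, is the leucine window with TAA then T: ttaATGtaat. The authors' deposited tables give it a response of -3.12 (standard error 1.05, mean count 27.9) in the EJC-independent reporter and 2.55 (standard error 0.67, mean count 66.8) in the EJC-enhanced reporter, so the sign differed between the reporters. Among methionine TGG windows, the authors' deposited table of EJC-independent variants lists 3.17% as higher and 3.97% as lower, where 4.09% and 4.03% of all TGG variants are. That of the EJC-enhanced reporter has 3.66% higher and 2.62% lower, where 2.76% and 1.37% are.

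Members were spread around their mean by an SD of 0.73 in the EJC-independent and 0.89 in the EJC-enhanced reporter, against 0.61 and 0.75 for other stop variants. The root mean square of the deposited standard errors was 0.67 and 0.78 for members, so the SD left after measurement error was 0.29 and 0.42, beside 0.32 and 0.36 for other codons. Most of the spread between single members was thus of the size of their measurement error, and groups of members are compared below.

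Low responses made up a larger share of members than of other variants, beside their larger standard errors. In the EJC-independent reporter 8 members (2.54%) lay below 0 and 41 (13.0%) between 0 and 1, against 0.887% and 7.11% of other stop variants. The interval from 1 to 1.5 held 95 members (30.2% against 24.0%), that from 1.5 to 2 held 107 (34.0% against 42.0%), and 6 (1.90% against 2.80%) lay at 3 or more. In the EJC-enhanced reporter 6 members (1.39%) lay below 0, 21 (4.86%) between 0 and 1 and 48 (11.1%) between 1 and 1.5, against 0.569%, 3.56% and 7.13% of other stop variants. High responses took a larger share as well there, with 69 members (15.97%) at 3 or more, against 13.6% of other variants. The 234 members used in both tables showed hardly any correlation of their responses between the reporters, which share the sequence but no library (Pearson r 0.02, Spearman rho 0.02, beside Pearson r 0.01 over 25937 other stop variants). Of these 234 windows, 189 (80.8%) had the larger response in the EJC-enhanced table, on the separate scales of the tables, and so did 79.2% of the 25937 windows with other last codons.

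By stop codon, members of the EJC-independent reporter averaged 1.63 ± 0.07 before TGA (99 variants), 1.52 ± 0.07 before TAA (110 variants) and 1.44 ± 0.07 before TAG (106 variants). Other codons averaged 1.84, 1.69 and 1.64 before the same stop codons, so methionine was lower before each of them. The methionine effect was -0.21 before TGA (interval -0.34 to -0.08), -0.20 before TAG (interval -0.30 to -0.10) and -0.18 before TAA (interval -0.31 to -0.04). These did not differ detectably from each other (interaction F 0.0516, adjusted p 0.992). In windows that share the other bases, TGA exceeded TAG by 0.12 in 60 methionine pairs (interval -0.09 to 0.33) and TAA by 0.07 in 66 (interval -0.13 to 0.27), against 0.20 and 0.15 for other codons, and TAA and TAG differed by 0.00 in 62 pairs (interval -0.26 to 0.26).

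Members of the EJC-enhanced reporter averaged 2.36 ± 0.06 before TAA (146 variants), 2.18 ± 0.09 before TGA (139 variants) and 2.11 ± 0.07 before TAG (147 variants), against 2.31, 2.30 and 2.26 for other codons. The methionine effect was 0.04 before TAA (interval -0.08 to 0.17), -0.12 before TGA (interval -0.27 to 0.03) and -0.16 before TAG (interval -0.31 to -0.01). The interaction with the stop codon had an unadjusted p of 0.0607 and did not pass (F 2.80, adjusted p 0.727). In windows that share the other bases, TAA exceeded TAG by 0.13 in 110 methionine pairs (interval -0.09 to 0.34) and TGA lay at -0.13 relative to TAA in 109 (interval -0.34 to 0.09). By the authors' deposited table of EJC-enhanced variants, 84.2% of the members before TAA, 71.9% of those before TGA and 70.7% of those before TAG were higher under the inhibitor, where 86.5%, 86.0% and 85.0% of variants with other last codons were. Median mean counts of the members followed the same order, at 88.6, 69.5 and 61.8, beside 154, 141 and 140 for other last codons. Their part in this was not tested.

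The base after the stop codon is a known modifier of termination. Members of the EJC-independent reporter averaged 1.73 ± 0.09 with A (53 variants), 1.55 ± 0.09 with T (87 variants), 1.47 ± 0.06 with C (103 variants) and 1.43 ± 0.09 with G (72 variants). Other codons ranged from 1.69 with C to 1.77 with A. The methionine effect was thus -0.03 with A (interval -0.19 to 0.13), -0.18 with T (interval -0.36 to 0.00), -0.22 with C (interval -0.34 to -0.11) and -0.28 with G (interval -0.46 to -0.10). The 4 values span 0.25, and the interaction did not pass (F 2.05, p 0.104, adjusted p 0.842). Their span was 0.415 with the matched TGG response subtracted (adjusted p 0.597). The bases gave, for the EJC-enhanced reporter, 2.19 with A, 2.25 with C, 2.24 with G and 2.16 with T, and the interaction did not pass (F 0.456, adjusted p 0.888).

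Among the 12 combinations of stop codon and following base, the members of the EJC-independent reporter were highest with TGA then A (1.97 ± 0.16, 13 variants) and TAA then A (1.83 ± 0.13, 21 variants). They were lowest with TAG then G (1.27 ± 0.14, 29 variants) and TAA then T (1.39 ± 0.17, 33 variants). The same combinations averaged 1.89, 1.73, 1.61 and 1.68 for other codons, with methionine above them in the 2 high classes and below them in the 2 low classes. The classes named here were picked by their methionine means, which by itself favours that pattern, and it was not tested. TAA then T holds the member with a response of -3.12, and without it, an alternative chosen after seeing the data, the class averaged 1.53 (32 variants, rank 7 of 12 from the lowest), beside 1.54 over all 314 remaining members. TAA then T was highest in the EJC-enhanced reporter (2.47 ± 0.11, 38 variants) and TAG then T lowest (1.97 ± 0.15, 41 variants), against 2.31 and 2.27 for other codons.

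The penultimate amino acid is the one before methionine in the chain. Coverage of the members was uneven by it. Of the possible windows, 42 of 48 with proline and 19 of 24 with phenylalanine had a count of 10 or more in the EJC-independent table, but 3 of 24 with glutamate, 5 of 24 with lysine and 9 of 48 with glycine. Lowest in the EJC-independent reporter were methionine itself (0.91, 2 variants), glutamate (1.11, 3 variants), tryptophan (1.18, 4 variants) and asparagine (1.19, 6 variants). Highest were isoleucine (1.90, 7 variants), lysine (1.76, 5 variants), aspartate (1.75, 10 variants) and proline (1.68 ± 0.10, 42 variants). With other last codons these amino acids gave 1.71, 1.75, 1.68 and 1.74 for the low and 1.81, 1.70, 1.74 and 1.82 for the high set. They were picked by their methionine means, which by itself favours such gaps, and the low set rests on few variants. The methionine effect did not differ detectably between penultimate amino acids (F 0.739 with 19 degrees of freedom, adjusted p 0.983).

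The 5 penultimate amino acids with the most members, picked for their coverage after values were seen, all lay below their own means with other last codons in the EJC-independent reporter. Leucine gave 1.59 (42 variants) against 1.72, proline 1.68 (42 variants) against 1.82 and serine 1.48 (39 variants) against 1.66. Arginine gave 1.31 (25 variants) against 1.57 and alanine 1.51 (22 variants) against 1.74. In the EJC-enhanced reporter the lowest were phenylalanine (1.93, 22 variants), tryptophan (1.99, 4 variants), tyrosine (2.00, 19 variants) and glutamine (2.02, 12 variants), and the highest glutamate (2.54, 5 variants), asparagine (2.53, 7 variants), aspartate (2.49, 13 variants) and methionine (2.42, 4 variants). With other last codons, phenylalanine gave 2.25, tryptophan 2.21 and tyrosine 2.32. That mean is not given here for glutamine or for the high set, so the high values cannot be judged against it. The interaction did not pass (F 0.542, adjusted p 1.00).

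Windows with methionine as both codons are few, and they are shown because the ATG triplet is then repeated. Capitals mark the last codon.
TAG then C: atgATGtagc
TAA then A: atgATGtaaa
TAA then C: atgATGtaac
TAA then T: atgATGtaat
TGA then T: atgATGtgat
The authors' deposited table of EJC-independent variants gives the TAG window a response of 0.20 (standard error 0.84, mean count 29.8) and the TGA window 1.62 (standard error 0.28, mean count 303). The authors' deposited table of EJC-enhanced variants gives the TAA windows 1.52 (0.91), 2.41 (0.52) and 2.55 (0.75) in the order shown, and the TGA window 3.19 (0.83). Its TGG control atgATGtggt had -0.25 and 0.12 in the authors' deposited tables.

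Against each of the other 60 codons in turn, methionine was lower than 43 and higher than 2 in the EJC-independent reporter, and 15 comparisons did not pass (adjusted over the 60). The 2 codons it exceeded are those of tyrosine, with methionine 0.14 above TAT (adjusted p 0.00388) and 0.09 above TAC (adjusted p 0.0452). That count was between 0 and 9 under the alternatives. Just below methionine (-0.19) in the order of effects were the cysteine codon TGT (-0.22) and the histidine codon CAC (-0.22). Just above it were the glutamine codon CAG (-0.19) and the asparagine codon AAT (-0.18), and none of these 4 differed detectably from methionine. Methionine was lower than 2 codons in the EJC-enhanced reporter, ACC of threonine and GAC of aspartate, and higher than 0, with 18 comparisons at an unadjusted p under 0.05. The count of 43 fell to 19 with the TGG response subtracted, and the count of 2 in the EJC-enhanced reporter became 0 in 5 alternatives.

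The 9 codons that differ from ATG by 1 base set the amino acid beside close relatives in sequence. In the EJC-independent reporter methionine was lower than 7 of them. The widest gap was to the threonine codon ACG, with methionine at -0.57 relative to it (interval -0.67 to -0.48, adjusted p 2.31e-31) and lower in 184 of 244 matched windows (75.4%). The valine codon GTG followed (-0.27, adjusted p 5.12e-07), then lysine AAG (-0.19, adjusted p 0.0119) and leucine CTG (-0.19, adjusted p 2.63e-05). All 3 isoleucine codons stood above methionine by similar amounts, with methionine at -0.14 relative to ATT (adjusted p 0.00199), -0.14 relative to ATC (adjusted p 0.00183) and -0.12 relative to ATA (adjusted p 0.0195). The 2 that did not pass were leucine TTG (-0.06, interval -0.15 to 0.02, adjusted p 0.186) and arginine AGG (-0.03, interval -0.15 to 0.09, adjusted p 0.661). Methionine was lower in 66.9% of matched windows for AAG, 59.9% for GTG and for CTG, and 56.7% for ATC. The share was 54.9% for ATT, 54.7% for ATA, 52.7% for AGG and 52.1% for TTG. Tryptophan, the other amino acid with a single codon, was above methionine as well (-0.14, interval -0.25 to -0.04, adjusted p 0.0121). Differences from the 9 neighbours in the EJC-enhanced reporter ran from -0.13 for ATA to 0.11 for AGG, and none passed.

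The window ttcATGtgac and its 1-base neighbours are shown to set single sequences beside these averages, with the last codon in capitals.
Methionine: ttcATGtgac
Threonine: ttcACGtgac
Isoleucine, ATC codon: ttcATCtgac
Isoleucine, ATT codon: ttcATTtgac
Isoleucine, ATA codon: ttcATAtgac
Leucine, CTG codon: ttcCTGtgac
Leucine, TTG codon: ttcTTGtgac
Valine: ttcGTGtgac
Arginine: ttcAGGtgac
Lysine: ttcAAGtgac
In the authors' deposited table of EJC-independent variants, the methionine window had 1.55 (standard error 0.14), beside TTG at 1.96 (0.14), CTG at 1.88 (0.13) and ATT at 2.28 (0.48), whose distances from it exceed the combined standard error. In that deposited table ATC stood at 1.80 (0.24), ACG at 1.69 (0.23) and ATA at 1.70 (0.34), each closer to methionine than the combined standard error, while AGG at 1.00 (0.67) and GTG at 1.30 (0.90) lay below it with large errors. The order in this window thus differs from the averages over windows, where ACG was farthest from methionine and TTG did not pass. In the authors' deposited table of EJC-enhanced variants the same windows lay between 1.78 (0.45) for ACG and 3.20 (0.47) for GTG, with methionine at 2.35 (0.42) and lysine AAG at 2.04 (0.54).

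Whether ATG stands out from its single bases was asked with a model in which each of the 6 random bases has its own term. In the EJC-independent reporter the ATG triplet at bases 4 to 6 lay at -0.24 beyond the sum of its bases (interval -0.32 to -0.16, adjusted p 2.16e-08 over the 61 triplets). In that model 26.2% of triplets were called lower, and ATG ranked 5 from the lowest. The same quantity was -0.08 in the EJC-enhanced reporter (interval -0.17 to 0.01, adjusted p 0.397). Each such value depends also on the other triplets that share its bases. In the EJC-independent reporter the alanine triplets GCC, GCA and GCT ranked 2, 3 and 4 (-0.31, -0.28 and -0.28). Their codon effects in the main model were -0.04, -0.05 and -0.04, none of them called. AGG ranked 1 (-0.38), and its codon effect was called lower (-0.16). At other places of the window, ATG gave -0.06 at bases 1 to 3, where it also codes for methionine (interval -0.14 to 0.02, adjusted p 0.316), 0.04 at bases 2 to 4 (interval -0.06 to 0.14, adjusted p 0.73) and -0.13 at bases 3 to 5 (interval -0.25 to -0.02, adjusted p 0.0398) in the EJC-independent reporter. At bases 3 to 5, 25% of the 64 triplets were called lower, and the call of ATG there ended with the TGG response subtracted (-0.11, adjusted p 0.218). In the EJC-enhanced reporter ATG at these 3 places gave 0.05, 0.07 and 0.06, and none passed. The differences between places were not tested.

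A purine 3 bases ahead of an ATG is a feature of efficient start codons, and in these windows that place is base 1. Members with A or G at base 1 averaged 1.52 ± 0.08 (110 variants) and those with C or T 1.53 ± 0.05 (205 variants) in the EJC-independent reporter, against 1.76 and 1.69 for other last codons. For the EJC-enhanced reporter the means were 2.22 ± 0.07 (173 variants) and 2.21 ± 0.05 (259 variants), against 2.29 and 2.29. The interaction of methionine with a purine at base 1 was -0.07 (interval -0.24 to 0.10, adjusted p 0.902) and 0.02 (interval -0.14 to 0.18, adjusted p 0.991). The first ranged from -0.39 to 0.08 over the alternatives and neither passed.

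The ends of the range, among members whose mean count reached 100, show how far single sequences reach. They were picked by their values and carry no test. In the EJC-independent reporter the lowest were these.
Glutamine before methionine: cagATGtgac
Arginine before methionine: cgcATGtaac
Threonine before methionine: acgATGtagc
Serine before methionine: agtATGtgac
The authors' deposited table of that reporter gives them responses of 0.32 (standard error 0.46), 0.48 (0.43), 0.69 (0.54) and 0.75 (0.48), none called. All 4 end in C, as do 103 of the 315 members of any depth. Members with C also had the deepest counts of the 4 bases (median mean count 136), and the shared base was not tested. In the EJC-enhanced reporter the first 3 had 1.54 (0.79), 1.63 (0.65) and 1.92 (0.78) in the authors' deposited table, with adjusted p of 0.0784, 0.0213 and 0.0242 in that table. The highest in the EJC-independent reporter were these.
Leucine before methionine: ctaATGtgat
Aspartate before methionine: gacATGtaag
Proline before methionine: cccATGtgat
Cysteine before methionine: tgtATGtgat
The authors' deposited table gives them 2.74 (0.41), 2.72 (0.26), 2.72 (0.36) and 2.53 (0.45), each with an adjusted p under 0.05. Of these, 3 end in TGA then T, as do 29 of the 315 members of any depth, and this was not tested. The proline window had 2.27 (0.42) in the deposited table of EJC-enhanced variants and a TGG control at -0.04 (0.10) in that of the EJC-independent reporter.

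In the EJC-enhanced reporter the lowest members at that depth were these.
Leucine before methionine: ctcATGtgag
Proline before methionine: ccgATGtgac
Glycine before methionine: ggcATGtgat
Phenylalanine before methionine: tttATGtgat
The authors' deposited table of EJC-enhanced variants gives -0.12 (0.72), 0.96 (0.73), 1.02 (0.89) and 1.10 (0.46), of which the last was called. All 4 carry TGA, a trait seen after they were picked by value and not tested. The authors' deposited table of EJC-independent variants has them at 2.09, 2.54, 1.51 and 1.43. The highest were these.
Arginine before methionine: cgtATGtaat
Tyrosine before methionine: tacATGtagt
Valine before methionine: gtcATGtgag
Glutamate before methionine: gagATGtaaa
They reached 4.32 (0.57), 3.79 (0.54), 3.76 (0.81) and 3.66 (1.65) in the authors' deposited table of EJC-enhanced variants, and 1.61, 1.38, 1.63 and 2.03 in that of the EJC-independent reporter. The most deeply counted of these, gagATGtaaa with a mean count of 1330 in the EJC-independent table, had a standard error of 0.13 there. Its response in the EJC-enhanced reporter, for which it is listed, had the largest standard error of the 4 (1.65).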

How the data were processed

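RNA of 12 libraries (3 for each reporter and treatment) was compared by the authors, who deposited 1 table per reporter with 1 comparison per variant. Per the file headers, a row holds a mean normalized count (a signal over libraries), the log2 fold change and its standard error, the Wald score, and the p-value before and after adjustment. The submitters' processing notes name DESeq and DESeq2, with versions and read processing not given in the sources used here. The numerator of the fold change is not stated, and the deposited log2 sign was reversed as described above. If the numerator is the other treatment, all signs turn.

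A minimum mean normalized count of 10 was applied. With Python 3.11.15, numpy 2.4.6, pandas 2.3.3 and scipy 1.17.1, a linear model was fitted over all stop variants of a table, with last codon, penultimate codon and stop codon by base 10 as terms and standard errors clustered on the 6 random bases. P-values were adjusted by Benjamini-Hochberg over the 61 last codons (60 for pairs, all triplets for other registers), at a threshold of 0.05. On simulated data with known codon effects, 94.4% (EJC-independent, 28964 variants) and 92.7% (EJC-enhanced, 34522 variants) of the 95% intervals held the true value over 20 simulations. These shares are over all last codons. The simulated data had an effect for each set of 6 random bases and independent noise of the size of the deposited standard errors. They held no error shared within a library, so they cannot test the intervals for it. Single variants were called only by the deposited adjusted p.

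Sequences named are the 4 highest and 4 lowest members per reporter whose mean count reached 100, the 3 deepest contexts with TGG controls, the 9 codons 1 base from ATG for the first of these with TGA, and windows with methionine as both codons. The member called lower under the inhibitor was added after its value was seen. Penultimate amino acids named are the 4 highest and 4 lowest per reporter. Others are named for their coverage, and those with the most members were picked after values were seen. The members were chosen by sequence alone. That choice and the lists were made with earlier results of these data known. The tables hold no counts per library, so depth per library is unknown and no counting intervals are given.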

Additional observations from a re-analysis of the deposited data

How the results depend on the processing

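Of 195 values under alternatives (leaving out the member called lower is not counted), 170 kept their direction and side of the threshold or stayed close to the main value. With the matched TGG response subtracted, the methionine effect in the EJC-independent reporter was -0.16 (adjusted p 0.0618), the codons above methionine fell from 43 to 19 and those below it from 2 to 0, and ATG gave 0.067 at bases 1 to 3, -0.067 at bases 2 to 4 and -0.11 at bases 3 to 5. The number of codons below methionine was 1 with no count filter, 9 at mean counts of at least 50, 7 with inverse variance weights, 4 with responses limited to the percentiles 1 and 99 and 1 among variants in both tables. In the EJC-enhanced reporter the 2 codons above methionine became 0 at mean counts of at least 50, inverse variance weights, limited responses, TGG subtraction and variants in both tables. The methionine effect in TGG controls of the EJC-independent reporter was -0.00315 at mean counts of at least 50 and -0.0127 with inverse variance weights, which also gave -0.0795 for ATG at bases 1 to 3 (adjusted p 0.0178) and 0.078 for the purine interaction. The difference between reporters passed with inverse variance weights (-0.12), among variants in both tables (-0.19) and with standard errors without clusters (-0.11), and not under the other alternatives. Members called higher in the EJC-enhanced reporter were 193 among variants in both tables, where fewer members are listed, and the member called lower in the EJC-independent reporter was left out at a mean count of 50 or more (0). Other causes were not tested.

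No paired analysis was possible because the tables hold no value per library. For the same reason, leaving out replicates and DESeq2 size factors were not run. Depth limits single members: 47.3% in the EJC-independent and 35.6% in the EJC-enhanced reporter had a mean count of 100 or more, against 70.7% and 62.4% of other stop variants.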
